A study of Homo sapiens with 12 samples.

Results

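The protein kinase C (PKC) and protein kinase D (PKD) isoforms analysed here were PRKCA, PRKCD, PRKCE, PRKCH, PRKCI, PRKCZ, PRKD1, PRKD2 and PRKD3. These 9 genes were taken by name from the 24331 features of a gene expression table, and each had 1 feature there. Expression was measured by RNA-sequencing in wild type (WT) MDA-MB-231 cells, a human triple-negative breast cancer cell line with mesenchymal features, and in the same line after CRISPR/Cas9 removal of NFAT and NF-κB sites in the core-regulatory element (CRE) of the ETS1 promoter (KO, called ΔCRE). Both genotypes were stimulated with PMA and Ionomycin for 0, 6 or 24 h, with 2 biological replicates in each of the 6 groups, 12 libraries in all. The ΔCRE cells were screened as clones and the number of clones behind the libraries is not given in the sources used here, so an effect of the deletion and a difference between clones cannot be told apart. Every value is an FPKM, a fragment count that the authors scaled to transcript length and to the mapped fragments of the library.

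PKC isoforms are serine/threonine kinases that pass on lipid signals from the cell membrane. The classical isoforms need both calcium and diacylglycerol, the nPKC isoforms need diacylglycerol without calcium, and the atypical isoforms need neither. The PKD isoforms bind diacylglycerol too and are switched on by PKC. PMA is a phorbol ester that takes the place of diacylglycerol, and Ionomycin lets calcium into the cell, so the pair of agents acts directly on the classical isoforms and on nPKC. Long exposure to phorbol esters is known to deplete PKC proteins, which RNA-sequencing does not measure.

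One library stood apart. FPKM values summed to 566255 at the least and 651080 at the most in 11 libraries, and to 1.42e+06 in the one labelled ΔCRE 0 h replicate 1. Pearson's r of log2(FPKM + 1) across genes was between 0.978 and 0.984 for the replicates of the other 5 groups and 0.867 at ΔCRE 0 h. The 12 markers of other cell types summed to between 2.75 and 4.24 FPKM in the 11 libraries, where 10 of them stayed under 1 FPKM in each library and 5 were listed at 0 throughout. In the library that stood apart they summed to 2026 FPKM, led by EPCAM at 1139 and the gut epithelial gene LGALS4 at 596, and the part of other cells in its values was not tested. It was kept out of the fit and its values are given separately, so ΔCRE 0 h rests on replicate 2. The mesenchymal marker VIM was at 1543 FPKM or more in the 11 libraries, while the oestrogen receptor gene ESR1 reached at most 0.00894. In the library that stood apart VIM was lower, at 1200 FPKM. The mesenchymal markers CD44 and AXL, at 76.2 and 51.1 FPKM there, were within the range of the 11 libraries. ETS1, the targeted gene, rose from 24.0 and 23.7 FPKM in WT cells at 0 h to 139 and 145 at 6 h and stood at 36.2 and 39.7 at 24 h. ETS1 in ΔCRE cells stood at 16.5 FPKM at 0 h, 62.8 and 62.2 at 6 h and 29.3 and 30.7 at 24 h, below both WT libraries at each time point. In ΔCRE 0 h replicate 1 it was at 5.08 FPKM, below all 11 other libraries.

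In GRCh37, the same build as hg19, PRKCA covered chr17:64298925-64806862 on the plus strand, PRKCD covered chr3:53195222-53226733 on the plus strand and PRKCE covered chr2:45879042-46415129 on the plus strand. The PRKD2 feature was listed at chr19:47150868-47220384 on the minus strand, a span it shared with DACT3, DACT3-AS1 and MIR320E, while GENCODE places the gene itself at chr19:47177532-47220384. Those 3 neighbours stayed at or below 0.590 FPKM in the 11 libraries. PRKCZ shared its span, chr1:1981908-2144159, with C1orf86, a gene on the opposite strand whose end overlaps that of PRKCZ. C1orf86 stood at 49.7 to 70.4 FPKM in the 11 libraries and at 190 FPKM in ΔCRE 0 h replicate 1, and whether strand was used in counting is not stated, so PRKCZ values are uncertain. The other genes were PRKCH at chr14:61788514-62017698, PRKCI at chr3:169940219-170023770, PRKD1 at chr14:29896116-30396899 and PRKD3 at chr2:37477645-37544222.

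The promoters of 4 genes are shown because PRKCA and PRKCE fell and PRKCD and PRKD2 rose after stimulation. Each runs from 250 bases before the RefSeq start to 50 bases after it, 300 bases 5′ to 3′ on the strand of the gene. The sequences come from the RefSeq table for GRCh38.p14 and each matched GRCh37 once and exactly, at chr17:64298481-64298780 for PRKCA, chr3:53194975-53195274 for PRKCD, chr2:45878564-45878863 for PRKCE and chr19:47220322-47220621 for PRKD2. Capitals mark matches, on either strand, to the letters of SP1 (GGGCGG), EGR1 (GCGNGGGCG) and NFAT (TGGAAA). The EGR1 and SP1 letters can share bases, as they do in PRKCD.
PRKCA: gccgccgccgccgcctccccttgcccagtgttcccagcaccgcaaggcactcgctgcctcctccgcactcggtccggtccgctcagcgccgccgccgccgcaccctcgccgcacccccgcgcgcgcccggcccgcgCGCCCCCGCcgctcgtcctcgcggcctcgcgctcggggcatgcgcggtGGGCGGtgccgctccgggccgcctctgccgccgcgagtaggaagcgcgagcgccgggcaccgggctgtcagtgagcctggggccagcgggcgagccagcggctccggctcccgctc
PRKCD: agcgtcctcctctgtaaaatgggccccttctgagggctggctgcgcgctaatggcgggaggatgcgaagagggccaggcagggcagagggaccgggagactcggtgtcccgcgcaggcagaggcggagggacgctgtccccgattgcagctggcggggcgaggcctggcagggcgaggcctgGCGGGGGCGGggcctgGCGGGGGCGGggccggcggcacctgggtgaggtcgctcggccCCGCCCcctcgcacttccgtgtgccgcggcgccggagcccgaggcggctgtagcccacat
PRKCE: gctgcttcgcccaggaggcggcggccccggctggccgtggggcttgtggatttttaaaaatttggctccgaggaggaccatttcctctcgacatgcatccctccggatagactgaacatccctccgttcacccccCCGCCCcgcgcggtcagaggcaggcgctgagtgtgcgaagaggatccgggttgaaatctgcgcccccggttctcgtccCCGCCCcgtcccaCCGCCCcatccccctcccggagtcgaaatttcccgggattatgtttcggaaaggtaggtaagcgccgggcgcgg
PRKD2: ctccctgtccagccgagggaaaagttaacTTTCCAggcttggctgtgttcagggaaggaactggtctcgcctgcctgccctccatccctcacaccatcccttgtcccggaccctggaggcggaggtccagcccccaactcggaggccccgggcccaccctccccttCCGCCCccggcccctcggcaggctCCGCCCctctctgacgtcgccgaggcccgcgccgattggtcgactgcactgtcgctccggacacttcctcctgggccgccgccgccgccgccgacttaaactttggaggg

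The PRKCA window held 1 EGR1 match and 1 SP1 match and was 81.3% G and C. PRKCD held 2 EGR1 and 3 SP1 matches, PRKCE held 3 SP1 matches and PRKD2 held 2 SP1 matches and 1 NFAT match. RefSeq lists 16 promoters for the 9 genes. For each gene 1 window was used, that with its start nearest the 5′ end of the feature, and the others are not described. For PRKD3 that start lies 7754 bases from the end of the feature. SP1 letters were present in all 9 windows and in 45.0% of 35116 RefSeq promoters of the same length. EGR1 letters, which were present in the PRKCZ and PRKD3 windows too, were in 9.43% of those promoters. NFAT letters, among the 9 windows in that of PRKD2 alone, were in 20.7%. None of the 9 windows held the letters of AP-1 (TGANTCA, in 7.71% of all promoters), of the CREB element (TGACGTCA, in 1.85%) or of NF-κB (in 11.3%). ETS letters (CCGGAAG, in 10.3%) were in the PRKCH window alone, with 1 match. These are matches of letters and not measured binding.

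PRKCA, the only classical isoform among the 9, was the most abundant of them in unstimulated WT cells and fell at both time points. It stood at 33.7 and 35.3 FPKM at 0 h, 22.3 and 22.8 FPKM at 6 h and 11 and 11.1 FPKM at 24 h. The 3 groups did not overlap, and the libraries at 24 h were the lowest. The mean at 24 h was 31.9% of that at 0 h, a 3.13-fold fall. On the scale of log2(FPKM + 1), which understates changes of low values, the fold change was -0.59 at 6 h (limma, standard error 0.0611, adjusted p = 1.17e-04) and -1.56 at 24 h (limma, standard error 0.0611, adjusted p = 4.56e-07). PRKCA also fell between 6 and 24 h, by a further 0.97 on the log2 scale (limma, adjusted p = 1.35e-05). These are bulk libraries, so fewer cells with the transcript and less transcript per cell cannot be told apart.

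PRKCD, which encodes the nPKC isoform PKCδ, went the other way. It was at 21.4 and 18.6 FPKM at 0 h, 40.2 and 40.8 FPKM at 6 h and 30.8 and 29.0 FPKM at 24 h in WT cells. Both libraries at 6 h were above those at 24 h, and these were above both at 0 h. The mean rose 2.02-fold at 6 h and was 1.49-fold the starting level at 24 h. The log2 fold change was 0.98 at 6 h (limma, standard error 0.0805, adjusted p = 3.13e-05) and 0.56 at 24 h (limma, standard error 0.0805, adjusted p = 5.49e-04), with a fall of 0.43 from 6 to 24 h (limma, adjusted p = 0.00303).

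The other nPKC isoforms differed from PRKCD and from each other. PRKCE, which encodes PKCε and is linked to cell movement and survival, was at 6.22 and 6.91 FPKM at 0 h, 2.68 and 2.62 FPKM at 6 h and 2.66 and 2.89 FPKM at 24 h. Its mean at 6 h was 40.3% of that at 0 h and at 24 h it was 42.3%, so the fall came by 6 h. The log2 fold changes were -1.05 (limma, standard error 0.125, adjusted p = 2.57e-04) and -1.0 (limma, adjusted p = 2.45e-04). Between 6 and 24 h the difference was 0.05, with a 95% interval of -0.23 to 0.34. PRKCH, which encodes PKCη, an isoform known from epithelial differentiation, was at 1.61 and 2.03 FPKM at 0 h, 1.57 and 1.67 at 6 h and 3.16 and 2.89 at 24 h. Its rise passed only at the later time point, 1.66-fold against 0 h (log2 fold change 0.52, limma adjusted p = 0.00534), and at 6 h the difference from 0 h was -0.10 with a 95% interval of -0.37 to 0.16.

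Of the atypical isoforms, PRKCZ was raised early and PRKCI was lowered late. PRKCZ, which encodes PKCζ, was at 8.86 and 8.75 FPKM at 0 h, 14 and 12.6 FPKM at 6 h and 9.84 and 8.73 FPKM at 24 h. It rose 1.51-fold at 6 h (log2 fold change 0.54, limma adjusted p = 6.98e-04), and the libraries at 24 h spanned those at 0 h (difference 0.07, 95% interval -0.11 to 0.24). PRKCI encodes PKCι, a kinase of the cell polarity complex. It was at 9.75 and 11.3 FPKM at 0 h, 9.95 and 10.5 FPKM at 6 h and 7.09 and 8.06 FPKM at 24 h. Its mean at 24 h was 71.8% of that at 0 h (log2 fold change -0.43, limma adjusted p = 0.00534), while the 6 h libraries lay within the range of the 0 h libraries.

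The 3 PKD genes each had their own pattern. PRKD2 rose at both time points, from 11.2 and 9.59 FPKM at 0 h to 14 and 13.6 FPKM at 6 h and 18.2 and 16.7 FPKM at 24 h, with no overlap between the groups. The log2 fold change was 0.38 at 6 h (limma, standard error 0.0789, adjusted p = 0.0051) and 0.70 at 24 h (limma, adjusted p = 1.44e-04), and the mean at 24 h was 1.68-fold that at 0 h. PRKD3 was at 11.7 and 14.1 FPKM at 0 h, 10.9 and 12 FPKM at 6 h and 8.05 and 9.89 FPKM at 24 h. Its mean fell to 69.6% at 24 h (log2 fold change -0.48, limma adjusted p = 0.0146), a call that was lost without WT 0 h replicate 2 or WT 24 h replicate 1 (limma adjusted p = 0.104 and 0.106). PRKD1 was at or near 0 throughout. Its values above 0 were 0.0163 FPKM in 1 WT library at 0 h, 0.0166 FPKM in 1 WT library at 24 h and 0.0141 FPKM in ΔCRE 0 h replicate 2. These were of equal size once the depth of the library is allowed for, and that size was taken as 1 fragment. PRKD1 did not pass the filter of a mean of 1 FPKM, so 8 of the 9 genes were tested.

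**Figure D1:**
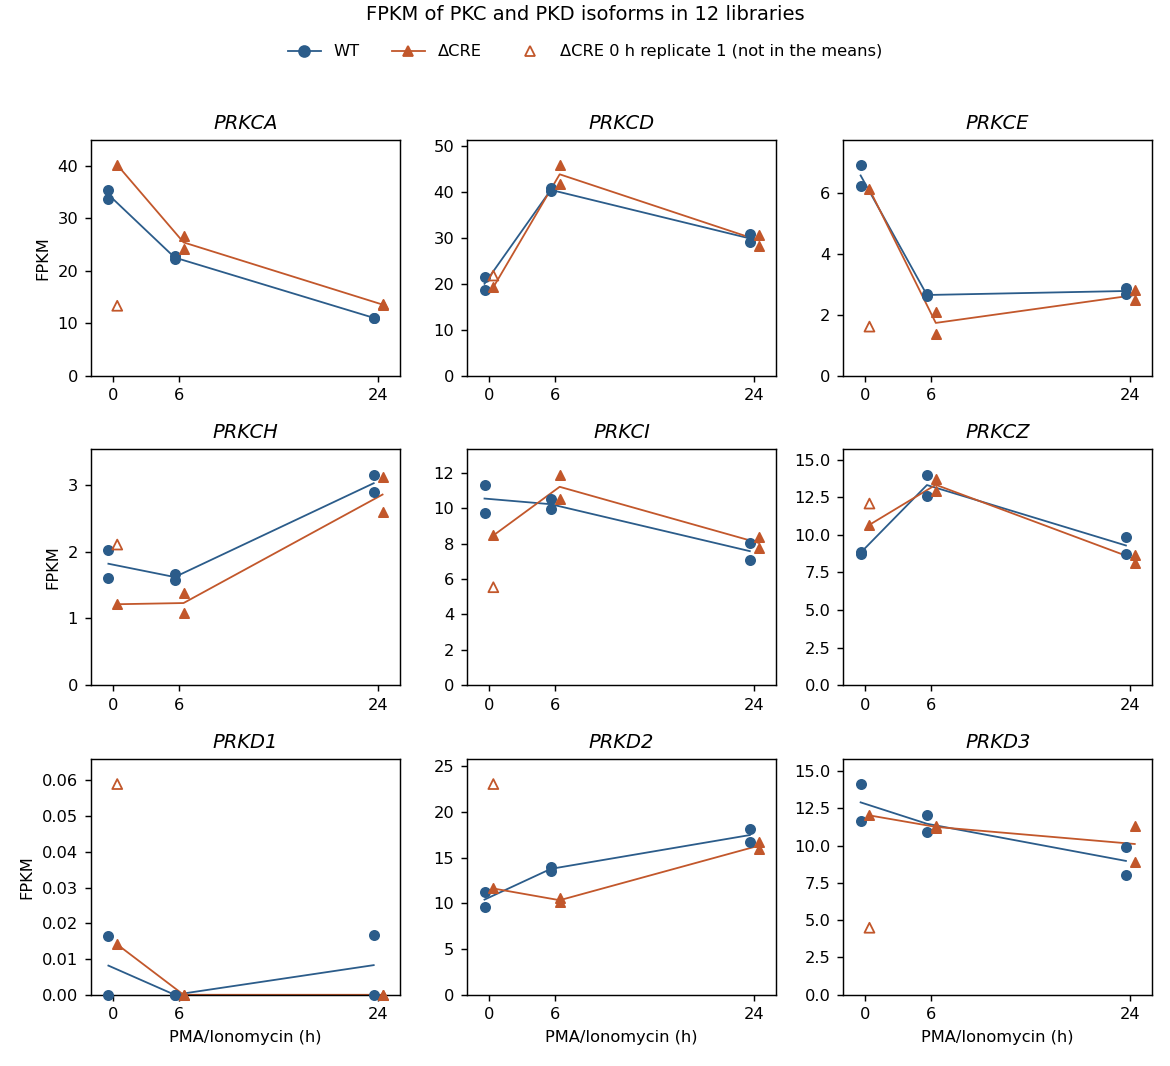
FPKM of each of the 9 genes (vertical axes, each starting at 0 and with its own scale) against hours of PMA/Ionomycin (horizontal axes), with a circle for each WT library, a triangle for each ΔCRE library and lines joining the group means. PRKCA falls from 34.5 to 11 FPKM and PRKCD peaks at 40.5 FPKM in WT cells, and the open triangle is ΔCRE 0 h replicate 1, which is in no mean.

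Counted together, 5 of the 8 tested genes passed an adjusted p under 0.05 between 0 and 6 h in WT cells, where 44.4% of the 11256 tested features did. Of the 5, 3 were higher and 2 lower, and of all features 23.3% were higher and 21.1% lower. Between 0 and 24 h 7 of 8 passed, 3 higher and 4 lower, against 54.6% of all features (26.5% higher and 28.2% lower). Between 6 and 24 h 6 of 8 passed, 2 higher and 4 lower, against 46.8% (20.5% higher and 26.3% lower). The median log2 fold change of the 8 genes was -0.07 at 6 h and -0.18 at 24 h, where that of all features was 0.00 and -0.02. The comparisons of 6 h and of 24 h with 0 h share the WT 0 h libraries. When the library that stood apart was fitted with the others, 2 of 8 genes passed in each, PRKCD and PRKCZ at 6 h (limma adjusted p = 0.00171 and 0.0189) and PRKCA and PRKCD at 24 h (limma adjusted p = 0.0441 and 0.0193).

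These changes altered the order of the isoforms, which FPKM allows because it is scaled to length. In WT cells at 0 h PRKCA led with a mean of 34.5 ± 1.13 FPKM (SD, n = 2), followed by PRKCD at 20.0 ± 1.96 FPKM (SD, n = 2) and PRKD3 at 12.9 ± 1.74 FPKM (SD, n = 2). PRKCI and PRKD2 came next with overlapping libraries, then PRKCZ, PRKCE, PRKCH and PRKD1, each apart from its neighbour. At 6 h PRKCD led at 40.5 ± 0.444 FPKM (SD, n = 2) and PRKCA was second at 22.5 ± 0.354 FPKM (SD, n = 2), ahead of PRKD2 and PRKCZ, which overlapped. At 24 h PRKCD stayed first at 29.9 ± 1.23 FPKM (SD, n = 2), PRKD2 was second at 17.5 ± 1.01 FPKM (SD, n = 2) and PRKCA came after it at 11 ± 0.0395 FPKM (SD, n = 2). PRKCZ, PRKD3 and PRKCI followed without clear separation. At the lower end PRKCH had passed PRKCE by a small margin, its lower library at 2.895 FPKM and the higher PRKCE library at 2.888 FPKM. In ΔCRE cells at 24 h the libraries of PRKCH and PRKCE overlapped.

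Ratios within a library do not depend on how libraries were scaled. The FPKM of PRKCA divided by that of PRKCD was 1.58 and 1.90 in the WT libraries at 0 h, 0.555 and 0.559 at 6 h and 0.358 and 0.381 at 24 h. In ΔCRE cells the same ratio was 2.09 at 0 h, 0.582 and 0.577 at 6 h and 0.436 and 0.486 at 24 h. The excess of PRKCA over PRKCD was thus turned round by 6 h in both genotypes. ΔCRE 0 h replicate 1 had a ratio of 0.611, near that of the libraries at 6 h. The share of PRKCA in the summed FPKM of the 9 genes went from 32.3% and 33.1% at 0 h to 19.3% and 19.6% at 6 h and 12.1% and 12.4% at 24 h in WT cells. The nPKC isoforms together took 28.0% and 25.8%, then 38.4% and 38.7%, then 40.3% and 39.0%. The PKD genes were at 21.9% and 22.2% at 0 h and 21.5% and 22.0% at 6 h, and reached 28.9% and 29.8% at 24 h. Shares were not tested and are given as values.

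**Figure D2:**
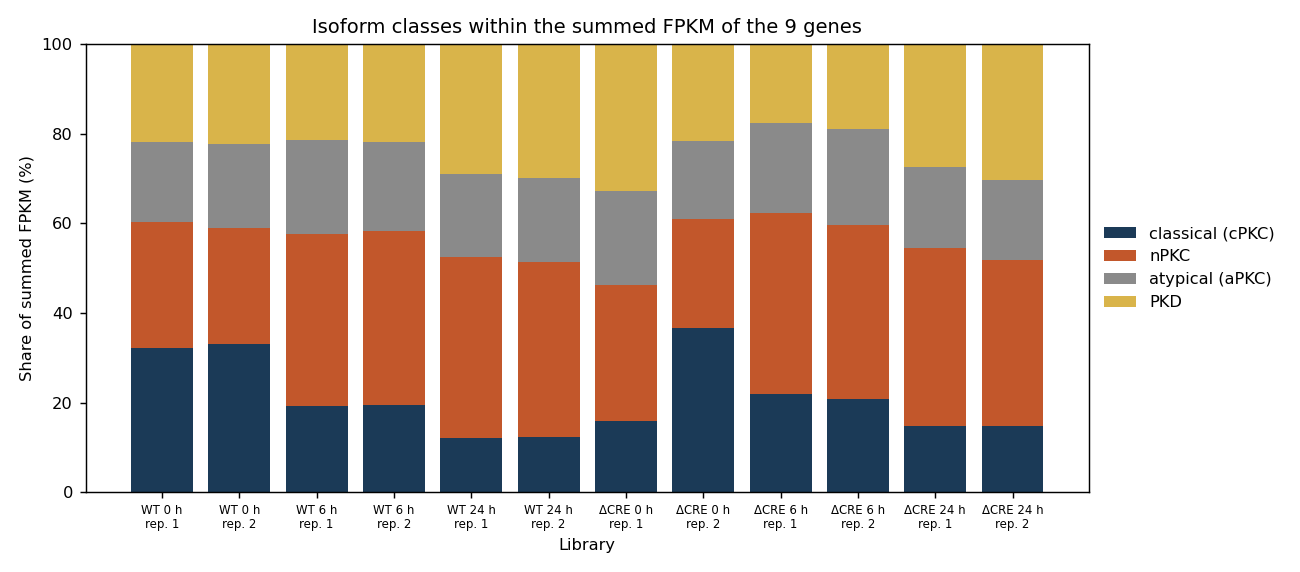
Stacked bars give, for each of the 12 libraries (horizontal axis), the share in % of the summed FPKM of the 9 genes (vertical axis, from 0 to 100) that fell on the classical (cPKC), nPKC, atypical (aPKC) and PKD genes. The classical share, which is PRKCA alone, goes from 32.3% and 33.1% in WT libraries at 0 h to 12.1% and 12.4% at 24 h.

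The ΔCRE cells showed the same leading changes. PRKCA was at 40.2 FPKM at 0 h, 26.7 and 24.1 FPKM at 6 h and 13.4 and 13.7 FPKM at 24 h, with log2 fold changes of -0.64 and -1.50 against 0 h (limma adjusted p = 3.96e-04 and 2.64e-06). PRKCD was at 19.3 FPKM at 0 h, 45.9 and 41.8 FPKM at 6 h and 30.7 and 28.2 FPKM at 24 h, with log2 fold changes of 1.14 and 0.59 (limma adjusted p = 7.2e-05 and 0.00191). PRKCE was at 6.11 FPKM at 0 h, 2.09 and 1.37 FPKM at 6 h and 2.47 and 2.81 FPKM at 24 h, with log2 fold changes of -1.39 and -0.97 (limma adjusted p = 2.81e-04 and 0.0014). In each of these genes the stimulated libraries lay on 1 side of the single unstimulated one. ΔCRE 0 h replicate 1, the library left out, had PRKCA at 13.3 FPKM and PRKCE at 1.61 FPKM, within the range of stimulated libraries. Of the genes used below as a check of phorbol ester stimulation, FOSL1 (96.3 FPKM), PTGS2 (0.191), DUSP5 (11.5) and LIF (14.8) were below every other library there. MMP1 (12.4 FPKM), IL8 (24.7) and PLAUR (119) were within the range of the other libraries, and SERPINB2 was at 0. When ΔCRE 0 h replicate 1 was fitted too, the log2 fold change of PRKCA between 0 and 6 h in ΔCRE cells turned to 0.12 (limma adjusted p = 0.833).

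In ΔCRE cells PRKCH was at 1.21 FPKM at 0 h, 1.08 and 1.38 FPKM at 6 h and 2.59 and 3.12 FPKM at 24 h, and rose 2.35-fold over 24 h (log2 fold change 0.80, limma adjusted p = 0.00242). PRKCI was at 8.46 FPKM at 0 h, 10.5 and 11.9 FPKM at 6 h and 7.74 and 8.35 FPKM at 24 h. PRKCZ was at 10.7 FPKM at 0 h, 13.7 and 12.9 FPKM at 6 h and 8.63 and 8.15 FPKM at 24 h. Both atypical genes were thus highest at 6 h, by 0.37 for PRKCI and 0.30 for PRKCZ on the log2 scale (limma adjusted p = 0.0455 for each). Neither call is firm, since PRKCI lost it under 10 of the alternative settings and PRKCZ under 12, besides the fit of all 12 libraries. PRKD3 was at 12 FPKM at 0 h, 11.3 and 11.2 FPKM at 6 h and 8.92 and 11.3 FPKM at 24 h and passed no test in ΔCRE cells. Against ΔCRE 0 h, 5 of 8 genes passed at 6 h, 3 higher and 2 lower, where 29.8% of all features did (16.8% higher and 13.0% lower). At 24 h 6 of 8 passed, 3 higher and 3 lower, where 41.5% did (20.6% higher and 21.0% lower). Between 6 and 24 h 7 of 8 passed, 3 higher and 4 lower, against 49.6% (22.1% higher and 27.5% lower). The single unstimulated library is assumed in these tests to vary like the other groups.

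PRKD2 had the widest gap between the genotypes in its early course. ΔCRE cells had 11.6 FPKM at 0 h, 10.1 and 10.5 FPKM at 6 h and 15.9 and 16.7 FPKM at 24 h. Both ΔCRE libraries at 6 h were below the unstimulated one, whereas both WT libraries at 6 h were above both at 0 h. The log2 fold change between 0 and 6 h was -0.15 in ΔCRE cells (limma adjusted p = 0.267) against 0.38 in WT cells. The difference between these changes was -0.53 (limma, standard error 0.125, 95% interval -0.82 to -0.25) and did not pass adjustment over all features (adjusted p = 0.249). By 24 h PRKD2 had risen in ΔCRE cells as well, by 0.45 against 0 h (limma adjusted p = 0.00597). That rise became -0.01 when ΔCRE 0 h replicate 1, where PRKD2 was at 23.0 FPKM, was fitted too (limma adjusted p = 0.984).

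At matched time points few isoforms passed between ΔCRE and WT cells. At 0 h, where ΔCRE cells had a single library in the fit, 0 of 8 genes passed with limma, against 1.69% of all features. The log2 differences at 0 h lay between -0.35 for PRKCH and 0.25 for PRKCZ. At 6 h PRKD2 was the 1 gene of 8 that passed, where 9.83% of all features did and 6.22% were lower. Its mean in ΔCRE cells was 75.1% of that in WT cells, a log2 difference of -0.38 (limma, standard error 0.0789, adjusted p = 0.02), and both ΔCRE libraries were below both WT libraries. PRKCE at 6 h was at 65.4% of the WT mean with both ΔCRE libraries below both WT libraries, a log2 difference of -0.43 that missed the threshold (limma, standard error 0.125, adjusted p = 0.0689).

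At 24 h PRKCA was the 1 gene of 8 that passed, where 6.33% of all features did and 2.35% were higher. Its mean was 1.23-fold that in WT cells, with a log2 difference of 0.28 (limma, standard error 0.0611, adjusted p = 0.0358). At 6 h the difference was 0.17 with a 95% interval of 0.03 to 0.31, and both ΔCRE libraries were above both WT libraries there too. Before stimulation, at 0 h, the difference was 0.21, with the single ΔCRE library of the fit at 40.2 FPKM, above both WT libraries. Averaged over 6 and 24 h, 2 of 8 genes passed, PRKCA higher by 0.22 (limma adjusted p = 0.00961) and PRKD2 with a difference of -0.24 (limma adjusted p = 0.0212), against 17.4% of all features (7.44% higher and 9.93% lower). The averaged call for PRKD2 was lost without either WT 6 h library, WT 24 h replicate 1 or any ΔCRE library at 6 or 24 h (limma adjusted p up to 0.0848), and in the fit of all 12 libraries. The call for PRKD2 at 6 h was lost under 5 alternative settings (limma adjusted p between 0.0582 and 0.135) and that for PRKCA at 24 h under 8 (between 0.0631 and 0.190), besides the fit of all 12 libraries. In a window of 10 Mb centred on each gene the median log2 difference was 0.00 over 158 features near PRKD2 at 6 h. It was 0.04 over 49 features near PRKCA at 24 h. The 95% interval at 24 h was -0.20 to 0.16 for PRKCD, -0.34 to 0.23 for PRKCE and -0.27 to 0.09 for PRKD2.

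Tests of whether the time course itself differed between genotypes called 0 of 8 genes with limma. For 6 h against 0 h 0.267% of all features passed. For 24 h against 6 h 0.160% of all features passed. There 1 of the 8 genes, PRKD2, had an unadjusted limma p under 0.05, as did 786 of the 11256 tested features. Its difference was 0.29 (limma adjusted p = 0.668). For PRKCI the difference in the change between 0 and 6 h was 0.40 (limma adjusted p = 0.527).

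**Figure D3:**
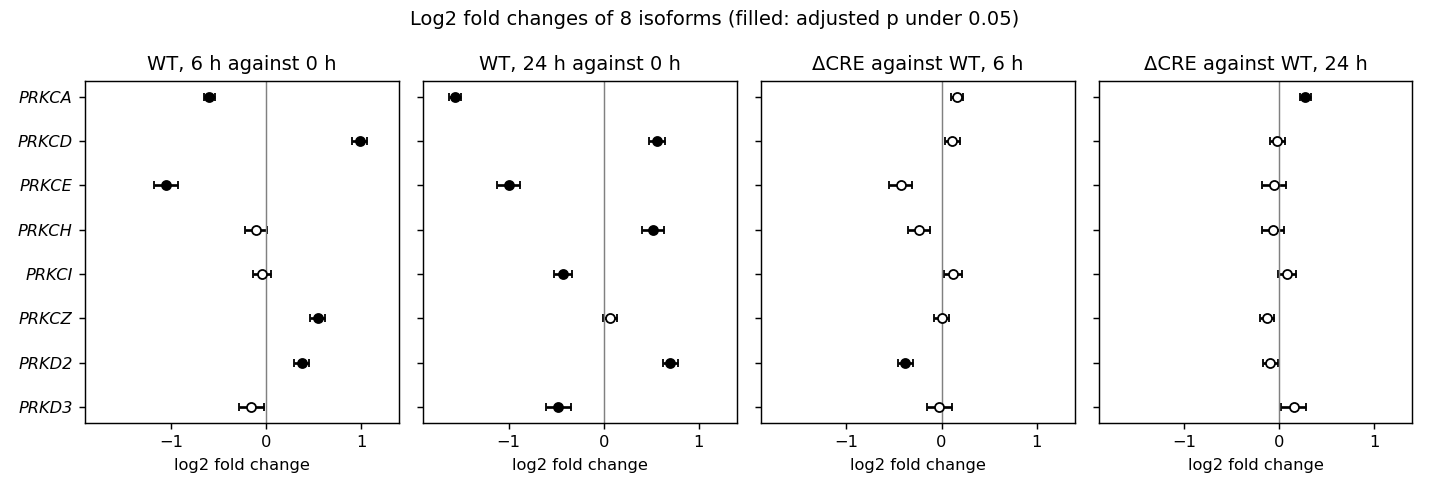
Log2 fold changes on the log2(FPKM + 1) scale (horizontal axes) of the 8 tested genes (rows) in WT cells at 6 and 24 h against 0 h and in ΔCRE against WT cells at 6 and 24 h, with bars of 1 standard error and filled points for an adjusted p under 0.05. Changes over time run from -1.56 for PRKCA to 0.98 for PRKCD, while differences between genotypes run from -0.43 to 0.28.

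Among PKC genes outside the 9, PRKCB, the calcium-dependent isoform of many blood cells, was listed at 0 in the 11 libraries, and PRKCQ reached at most 0.0399 FPKM. Of the PKC-related kinases PKN2 fell at 6 and 24 h in WT cells (log2 fold changes -0.49 and -0.71, limma adjusted p = 0.00967 and 0.00121), and PKN3 rose at 24 h (0.50, limma adjusted p = 0.00143).

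Of the wider pathway, 85 genes in 9 lists were in the table and 61 were tested. Between 0 and 6 h in WT cells 17 rose and 14 fell, where 44.4% of all features passed (23.3% higher and 21.1% lower). Between 0 and 24 h 24 rose and 14 fell, where 54.6% passed (26.5% higher and 28.2% lower). The medians of the 61 were 0.00 and 0.07. The same shares of all features apply to the counts of each list below. The 8 genes used as a check of phorbol ester stimulation, FOSL1, PTGS2, MMP1, IL8, PLAUR, SERPINB2, DUSP5 and LIF, passed as higher at both time points, with medians of 2.33 and 2.26.

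Enzymes that make or remove diacylglycerol moved unequally. Of 8 tested phospholipase C genes, which release diacylglycerol, 1 rose and 2 fell at 6 h and 2 rose and 2 fell at 24 h. PLCB1 fell by 0.64 and 0.96 on the log2 scale (limma adjusted p = 0.00158 and 1.22e-04), PLCB3 rose by 0.35 and 0.39 (0.0072 and 0.00322), and PLCB2 rose by 1.42 at 24 h (1.00e-05), from a mean of 2.96 to 9.54 FPKM. PLCG2 fell at 6 h (log2 fold change -0.42, limma adjusted p = 0.00704) and PLCE1 at 24 h (-0.73, 4.55e-04). Diacylglycerol kinases convert diacylglycerol to phosphatidic acid. Of 5 tested kinases 3 rose and 1 fell at 6 h and 4 rose at 24 h, with a list median of 0.30 and 0.90. DGKD led, from a mean of 12.4 FPKM to 47.8 at 6 h and 33.7 at 24 h (log2 fold changes 1.87 and 1.38, limma adjusted p = 1.28e-07 and 9.59e-07). DGKA rose at 24 h (1.18, 1.56e-05), DGKQ at both times (0.58 and 0.90, 0.00151 and 1.02e-04), and DGKG fell at 6 h (-0.50, 0.00324) and rose at 24 h (0.40, 0.00767). Of 2 tested other phorbol ester receptors, UNC13B rose at 24 h (0.30, 0.00815).

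Chaperones and phosphatases set how much mature PKC a cell holds. Of 10 such genes 3 rose and 3 fell at 6 h, and 1 rose and 5 fell at 24 h. The kinase co-chaperone CDC37 rose by 0.53 and 0.33 on the log2 scale (limma adjusted p = 8.37e-04 and 0.0065) and HSP90AB1 by 0.26 at 6 h (0.00754), but HSP90AB1 was lower at 24 h (-0.18, 0.0279). Of the PKC phosphatase genes PHLPP1 fell at both times (-0.50 and -0.31, 0.00669 and 0.0395). PHLPP2 stood at 0.26 at 6 h (limma adjusted p = 0.0553) and fell at 24 h (-0.35, 0.0131), and in ΔCRE cells it rose at 6 h (0.39, 0.0340) and fell at 24 h (-0.39, 0.0279). Of the mTOR complex genes RICTOR (-0.32 and -0.31, 0.0325 and 0.0311) and MLST8 (-0.24 and -0.44, 0.0414 and 0.00199) fell at both. Of 7 tested anchoring proteins 2 rose and 1 fell at 6 h and 3 rose and 1 fell at 24 h. SDPR, also called CAVIN2, a phosphatidylserine-binding protein of caveolae and a PKC substrate, fell from a mean of 37.2 FPKM to 4.03 at 6 h and 4.91 at 24 h (log2 fold changes -2.93 and -2.69, limma adjusted p = 2.45e-08 and 6.4e-08). AKAP12 (1.17 and 0.19, 1.06e-06 and 0.0193) and AKAP13 (0.63 and 0.28, 1.97e-04 and 0.0105) rose at both times and PICK1, which binds PKCα, at 24 h (0.49, 6.59e-04).

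Among 9 tested partners of atypical PKC 2 rose and 2 fell at 6 h, and 4 rose and 1 fell at 24 h. SQSTM1, a scaffold that binds atypical PKC, rose from a mean of 143 FPKM to 534 at 6 h and 395 at 24 h (log2 fold changes 1.89 and 1.46, limma adjusted p = 1.28e-07 and 7.6e-07). WWC1 rose at both times (1.38 and 0.59, 5.72e-06 and 5.2e-04) and PARD6A at 24 h (1.15, 0.00559), while PARD6B fell at both times (-1.05 and -0.84, 5.44e-04 and 0.00132) and PARD3B at 6 h (-0.38, 0.0242). Of 7 tested PKC substrates 0 rose and the same 3 fell at each time point, where 21.1% and 28.2% of all features fell. MARCKSL1 fell by 1.05 and 1.19 (limma adjusted p = 6.92e-06 and 3.17e-06), ADD3 by 0.75 and 0.68 (1.11e-04 and 1.47e-04) and MARCKS, the membrane-bound actin regulator, by 0.36 and 0.72 (0.0384 and 0.00118).

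Of 10 tested targets of PKD 6 rose and 1 fell at 6 h, and 7 rose and 1 fell at 24 h. Of all features 23.3% and 26.5% rose and 21.1% and 28.2% fell. The list medians were 0.52 and 0.39. PKD phosphorylates class IIa histone deacetylases and so moves them out of the nucleus. HDAC5 rose from a mean of 1.07 FPKM to 6.33 at 6 h and 16.5 at 24 h (log2 fold changes 1.82 and 3.08, limma adjusted p = 1.85e-06 and 1.1e-07). HDAC9 rose from 0.353 FPKM to 6.02 and 5.40 FPKM (2.38 and 2.24, 5.47e-07 and 8.57e-07). HDAC4 fell from 5.92 FPKM to 2.26 and 2.99 FPKM (-1.08 and -0.79, 2.32e-05 and 1.02e-04). The class IIa genes thus moved in both directions.

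**Figure D4:**
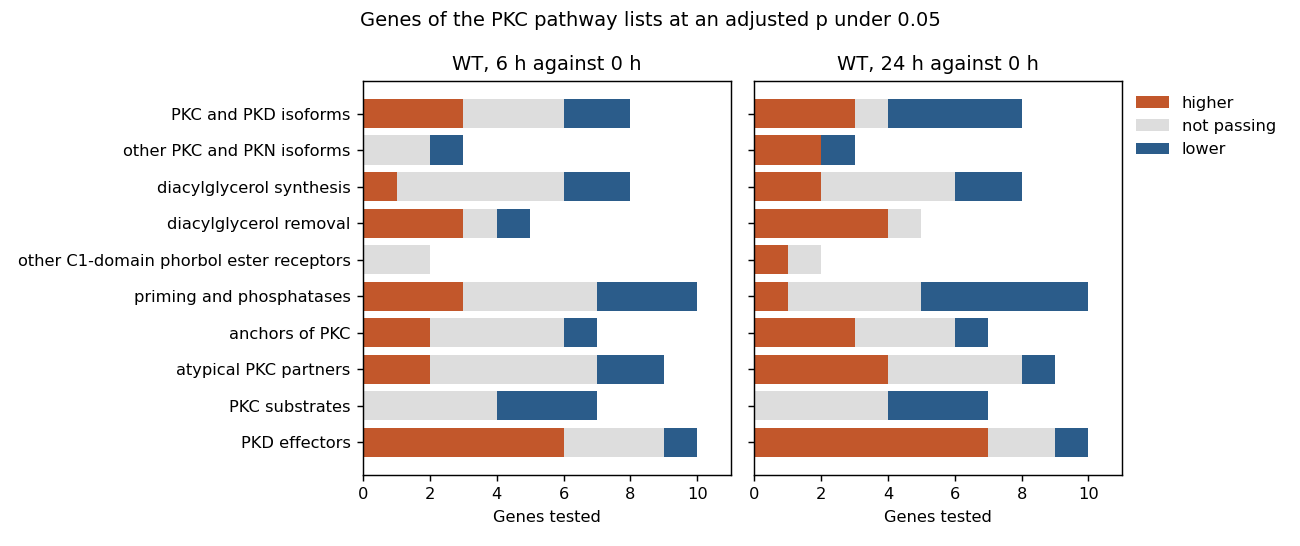
Number of tested genes in each list (horizontal axes) that passed as higher, passed as lower or did not pass an adjusted p under 0.05 in WT cells at 6 and 24 h against 0 h. PKD effectors show 6 and 7 of 10 genes higher, and PKC substrates show 3 of 7 lower at each time point. Of all features 23.3% and 26.5% were higher and 21.1% and 28.2% lower.

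Between genotypes 4 of the 61 pathway genes were higher and 8 lower in ΔCRE cells at 6 h, where 9.83% of all features passed in either direction. At 24 h 1 was higher and 6 lower, where 6.33% passed. PLCB2 was lower at both times (log2 differences -1.01 and -1.29, limma adjusted p = 7.45e-04 and 2.98e-04), with means of 0.743 FPKM in ΔCRE and 2.50 FPKM in WT cells at 6 h and 3.32 and 9.54 FPKM at 24 h. SDPR was lower (-0.47 and -0.54, 0.0066 and 0.00555), as were ADD3 (-0.43 and -0.40, 0.0107 and 0.021) and MAPKAP1, a subunit of the mTOR complex that primes PKC (-0.30 and -0.29, 0.00939 and 0.0143). At 0 h the single ΔCRE library of the fit was below the WT mean for these genes too. PLCB2 stood at 0.974 against 2.96 FPKM, ADD3 at 4.49 against 7.60, SDPR at 31.8 against 37.2 and MAPKAP1 at 39.2 against 46.2. AKAP12 was higher at 24 h (0.71, 2.98e-04). At 6 h MARCKS, PLCG2, HDAC9 and SQSTM1 were higher by 0.54, 0.44, 0.38 and 0.25 on the log2 scale (limma adjusted p = 0.0272, 0.0241, 0.0466 and 0.0407). HDAC7, HDAC5, PICK1 and PEBP1 had differences of -0.58, -0.41, -0.31 and -0.22 at 6 h (0.00276, 0.027, 0.0321 and 0.0425), and PLCG1 and SSH1 of -0.27 and -0.25 at 24 h (0.029 and 0.0294).

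PRKCA and PRKCE had the widest range of group means, 1.78 and 1.48 on the log2 scale. Over the 11 libraries the features whose log2(FPKM + 1) followed PRKCA most closely by Pearson's r were TPX2 (0.995), BAZ1B (0.993), DUSP1 (0.992), CAPRIN1 (0.991) and PRC1 (0.990). Mean FPKM of TPX2, a spindle assembly factor, went from 184 to 150 and 117 in WT cells, and that of DUSP1, a MAP kinase phosphatase, from 58.8 to 36.2 and 15.6. The features most like PRKCE were TLN2 (0.985), PLEKHA2 (0.979), PTPRJ (0.979), SGK223 (0.978) and SYNPO (0.978), with PTPRJ going from 24.2 to 11.8 and 11.9 FPKM. The 11 libraries form 6 groups, so these values are descriptions of group profiles.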

How the data were processed

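MDA-MB-231 libraries of both genotypes at 0, 6 and 24 h were grouped by the genotype, time and replicate number of their labels. The authors prepared stranded mRNA libraries, mapped the sequences to hg19 with TopHat, estimated expression with Cufflinks and deposited 1 FPKM value per feature and library (24331 features, 12 columns, all used). The annotation, and whether strand was used in counting, are not given in the sources used here. Of the features, 405 name more than 1 gene. A pair of column names carry a digit in place of a letter and were matched through the table's upper header line. The members and the lists were chosen with earlier results of these data known.

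From the FPKM values log2(FPKM + 1) was computed. Features had to reach a mean of 1 FPKM over 11 libraries, which 11256 did. They were fitted by limma 3.58.1 (R 4.3.3, eBayes with trend, 1 model of 6 groups, two-sided) without ΔCRE 0 h replicate 1. The Benjamini-Hochberg adjustment of P-values covered every tested feature. The script was checked on simulated data. The replicates are called biological without further detail. P-values set each difference against the spread between replicate libraries, estimated over the groups together, to which ΔCRE 0 h with its single library adds none. FPKM keeps no fragment number, but low values come in steps, taken as the worth of 1 fragment. These put the relative depth of the libraries at 73.0% to 119% of WT 0 h replicate 1. No interval from counting was computed.

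From each pathway list, up to 2 genes with the highest and 2 with the lowest log2 fold change were named among those that passed with groups that did not overlap, in WT 6 h and 24 h against 0 h and in ΔCRE against WT at 6 and 24 h. For the 2 genes with the widest range, the 5 features with the highest Pearson's r were named. Alternatives were all 12 libraries, a pseudocount of 0.1, every feature without a filter, a filter of 5 FPKM, rescaling to TPM, quantile normalization, separate fits, a block for the replicate number, no trend in eBayes and leaving out each library. Promoters were searched in Python 3.11.15. Some genes that the rule would name are not reported here.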

Additional observations from a re-analysis of the deposited data

Results flagged for a closer look

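In ΔCRE 0 h replicate 1, which entered only the fit of all 12 libraries, 5 genes lay above the higher of the WT 0 h libraries, the unstimulated controls. PRKD2 was at 23.0 FPKM there against at most 11.2 FPKM, PRKCZ at 12.1 against 8.86, PRKCD at 21.8 against 21.4, PRKCH at 2.11 against 2.03 and PRKD1 at 0.0589 against 0.0163 FPKM. The PRKD1 value is worth 3.0 fragments once depth is allowed for, if the size of its values in the other libraries is taken as 1 fragment. PRKD2 and PRKD1 were above all 11 other libraries, PRKCI at 5.54 FPKM and PRKD3 at 4.49 FPKM were below all of them, and the other genes were within their range. Of the 12 markers of other cell types 8 were at 1 FPKM or more in this library, where CDH17 stood at 126 FPKM and CDH1 at 52.3 FPKM. Their part in these values was not tested.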

How the results depend on the processing

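Of 42 results on single genes (40 of them called), all 42 kept their direction and side of the threshold under a pseudocount of 0.1, the replicate block and eBayes without trend, 40 under no filter and under quantile normalization, 38 under TPM and 36 under a separate fit per comparison. A mean FPKM of at least 5 left out PRKCE and PRKCH, and the other 32 results kept theirs. With all 12 libraries 12 of 42 did. The number of genes called then fell to 2 at WT 6 h, 2 at WT 24 h, 1 for WT 24 h against 6 h, 1 at ΔCRE 6 h, 2 at ΔCRE 24 h and 2 for ΔCRE 24 h against 6 h, and to 0 for ΔCRE against WT at 6 h, at 24 h and over both. PRKCA in ΔCRE 6 h against 0 h reversed to 0.12 and PRKD2 in ΔCRE 24 h against 0 h to -0.0105 under that fit. At ΔCRE 6 h the count was 3 without a filter and 3 in a separate fit. ΔCRE against WT gave 0 in a separate fit at 6 h and at 24 h, and 0 under TPM at 24 h. Under TPM the median of all features moved from 0.00 to -0.12 in WT 6 h against 0 h, with 35.0% in place of 52.5% of calls higher, and to -0.13 in ΔCRE 6 h against 0 h. There PRKCA was at -0.72, PRKCD at 0.88, PRKCE at -1.24 and PRKCZ at 0.45 in WT cells, and all kept their calls. Leaving out 1 library gave 5 to 5 calls at WT 6 h, 6 to 7 at WT 24 h, 4 to 7 for WT 24 h against 6 h, 3 to 4 at ΔCRE 6 h, 5 to 6 at ΔCRE 24 h, 6 to 7 for ΔCRE 24 h against 6 h, 0 to 1 for ΔCRE against WT at 6 h and at 24 h and 1 to 2 over both. The count at 6 h was 0 without WT 6 h replicate 1 or 2 or ΔCRE 6 h replicate 2, and at 24 h it was 0 without either WT 6 h, either WT 24 h or either ΔCRE 24 h library. Without ΔCRE 6 h replicate 1, PRKCE passed at 6 h in place of PRKD2 (limma adjusted p = 0.0193). The cause of these shifts was not tested. Of 54 uncalled results 25 changed sign under at least 1 alternative. The labels do not state whether the replicate numbers pair the samples. Same-numbered libraries correlated in their deviations at -0.07 to 0.20 over 10 pairs of groups, with 2 above 0.1. Over all features the replicate block raised the calls in every comparison, from 4993 to 5929 for WT 6 h against 0 h. Whether same-numbered libraries were handled together was not tested. With the replicate block 2 genes passed for ΔCRE against WT at 0 h, and no other count changed by over 1.5 times. With 2 libraries a group, standard errors of 0.0611 to 0.132 on the log2 scale limited what could be called at 6 and 24 h.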
